A study of Mus musculus with 6 samples.

Results

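The SurePrint G3 mouse expression array carries, beside its probes for annotated genes, a large set of probes that its maker placed in stretches of the genome thought to give rise to long intergenic noncoding RNAs, and these probes are described here in E18.5 fetal and adult basal mammary cells. They are called region probes. They were chosen as the non-control probes whose name begins with A_30_P and whose target is given as a chromosome interval in place of a transcript accession. This rule used no measured value and took 16194 of the 55681 non-control probes on the array. A further 57 probes with the same prefix had no interval and were left out, and 26536 probes with an accession of a protein-coding transcript, called coding probes, served as the comparison.

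The cells came from the mammary glands of C57Bl6J mice, all given as female. The fetal cells were taken at embryonic day 18.5 after a short enzyme digestion and sorted by the gate CD31-CD45-Ter119-EpCAM++CD49f+, and the adult basal cells were taken from animals of 8 to 12 weeks after overnight digestion and sorted by the gate CD31-CD45-Ter119-BP-1-EpCAM+CD49f+. Each population was represented by 3 biological replicates with 1 single-colour array for each, and the question was which transcripts differ between fetal cells and the adult cells closest to them in regenerative activity. Age, digestion time and gate all differ between the populations and cannot be told apart as sources of a difference. Adjusted p-values measure the spread between these 6 samples. An exact permutation test of 3 arrays against 3 cannot give a two-sided p below 0.10, so single probes were tested with limma, which pools information on the spread over all probes.

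Long intergenic noncoding RNAs are transcribed from stretches between protein-coding genes, are usually spliced and polyadenylated, and do not encode a known protein. As a class they are known for low abundance and for expression that is restricted to certain cell types or developmental stages. Some act in the nucleus on the chromatin of other genes, some act in the cytoplasm on other RNAs, and for most no function is known. Transcription from both strands of the same stretch is common, and the nuclear RNA exosome, a complex that degrades RNA, limits how much of such transcripts accumulates.

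The region probes named 4610 intervals of the mm9 assembly when the strand was counted, and 3543 intervals irrespective of strand, of which 1067 were probed on both strands. There were 8171 probes for the forward strand and 8010 for the reverse strand, while 13 probes in 3 intervals had no strand. The commonest design was 3 probes for an interval, used for 1810 intervals, followed by 5 probes for 975 intervals, and 690 intervals had a single probe. Intervals had a median length of 10676 bp, with quartiles of 1758 and 25866 bp, so that a probe is located only to the interval it was designed for and not to a base within it. Intervals on the same strand that overlapped were joined, which gave 3365 loci with a median of 4 probes and up to 34. Annotation and sequence of the mm9 assembly were not used here, so that neither the genes beside an interval nor its exons are given, and intervals are identified by their coordinates and probe names.

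Most region probes gave a signal, but on every array a smaller share of them than of coding probes stood well above background by the scanner's test. The share was 80.0%, 73.9% and 70.3% in the 3 fetal samples and 78.5%, 73.4% and 70.9% in the 3 adult basal ones. For coding probes it was 87.4%, 84.3% and 83.3% in the fetal samples and 86.5%, 83.4% and 82.4% in the adult basal ones. The ranges of the 2 populations overlapped for both classes. On all 6 arrays, 10419 region probes (64.3%) and 20797 coding probes (78.4%) were well above background, and 2364 region probes (14.6%) and 2478 coding probes (9.34%) were so on none. No spot was saturated on any array. The number of arrays, and for dim probes the background, limits the precision of what follows.

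**Figure D1:**
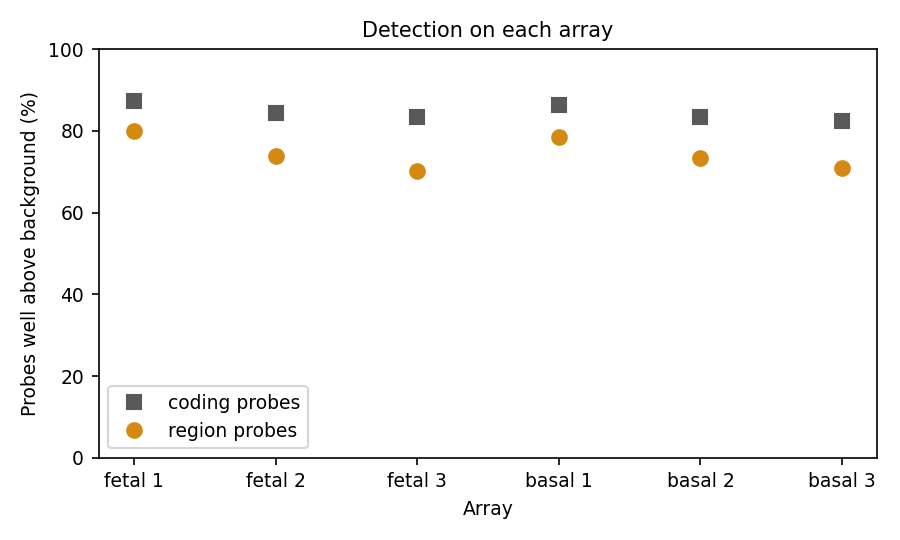
Share of region probes (circles) and coding probes (squares), in percent, that stood well above background on each of the 3 fetal and 3 adult basal arrays. Region probes lie between 70.3% and 80.0% and coding probes between 82.4% and 87.4%, with region probes lower on each of the 6 arrays.

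After removal of probes below a log2 signal of 5.69 in both populations, 9373 region probes (57.9%) and 20579 coding probes (77.6%) were tested among 37830 probes of all classes. Signals are normalized log2 intensities, and fold changes are given as fetal over adult basal on the log2 scale, so that positive values mean a higher signal in fetal cells. Over the tested region probes the 3 fetal arrays correlated with each other at 0.989 to 0.990 and the 3 adult basal arrays at 0.964 to 0.982, whereas fetal and adult basal arrays correlated at 0.902 to 0.927. These correlations are across probes and describe the arrays only. Among the adult basal arrays, replicate 2 stood somewhat apart, with 0.964 and 0.969 against the other adult basal arrays. It was the only adult basal array on slide 2 and had the most outlier spots (326) and the lowest median signal (113) of the 6 arrays.

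A total of 156 region probes differed by limma (p no higher than 0.05 after Holm adjustment over all probes, and a change of at least 2-fold), 86 of them higher in fetal and 70 higher in adult basal cells. This is 1.66% of the region probes tested, beside 5.56% of all probes tested. Coding probes reached 8.41%. By direction, 0.918% of region probes were higher in fetal cells beside 2.98% of all probes and 4.45% of coding probes, and 0.747% were higher in adult basal cells beside 2.58% of all probes and 3.96% of coding probes. The differing probes lay in 92 loci, 52 higher in fetal and 40 higher in adult basal cells, and in no locus did they go in both directions. With sorted bulk samples, fewer cells that make a transcript and less of it in each cell cannot be told apart.

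How many region probes were called depended on the number of arrays. Without 1 fetal array the count was 49 (replicate 1), 54 (replicate 2) or 58 (replicate 3), and without 1 adult basal array it was 81 (replicate 1), 102 (replicate 2) or 80 (replicate 3). The loci numbered 31, 32 and 38 without fetal replicates 1, 2 and 3, and 48, 62 and 48 without adult basal replicates 1, 2 and 3. Of the 37 called probes named below by the rule given with the processing, 15 kept their call without any 1 of the arrays. A further 22 lost it without at least 1 array, and 6 of them lost it whichever array was left out. Called probes mentioned outside that rule are not in this tally or among the named probes below. Each of the 2 slides held arrays of both populations, but unevenly, and the slides were scanned separately. Slide 1 held adult basal replicates 1 and 3 and fetal replicate 1, and slide 2 held adult basal replicate 2 and fetal replicates 2 and 3. Slide and population are thus partly confounded, and each difference within a slide rests on 1 array of 1 population. Within slides 1 and 2, the probes called higher in fetal cells had median log2 fold changes of 2.92 and 3.12, and those called higher in adult basal cells -3.10 and -3.13. Their direction was fixed by the choice of called probes on the same arrays and is not a separate result. With the slide as a block, 87 region probes in 53 loci passed. Under Benjamini-Hochberg adjustment and the same fold limit, 1111 region probes passed (11.9%, beside 22.5% of all and 29.8% of coding probes). Of these, 547 were higher in fetal cells (5.84%, beside 12.0% of all and 15.9% of coding probes) and 564 higher in adult basal cells (6.02%, beside 10.5% of all and 14.0% of coding probes).

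A smaller share of region probes than of coding probes differed between the populations. The share called was lower for region probes in all 18 fits made. The median size of the log2 fold change was 0.28 for region probes, 0.55 for coding probes and 0.41 for all probes tested. A change of at least 2-fold was shown by 12.8% of region probes and 30.5% of coding probes, and all arrays of one population lay above all of the other for 46.8% of region probes, 68.7% of coding probes and 60.3% of all probes. The spread between replicates was close in both classes, with a median SD of 0.13 against 0.12 in fetal cells and 0.19 against 0.18 in adult basal cells. No test of the difference between the classes was made.

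Of the tested probes well above background on all 6 arrays, 113 of 9051 region probes (1.25%) and 1508 of 19813 coding probes (7.61%) were called, with median sizes of change of 0.27 and 0.52 over the probes tested. This selection does not match the signal of the classes and leaves out probes that were at background in 1 population. The part of signal level in the difference between the classes was not tested.

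**Figure D2:**
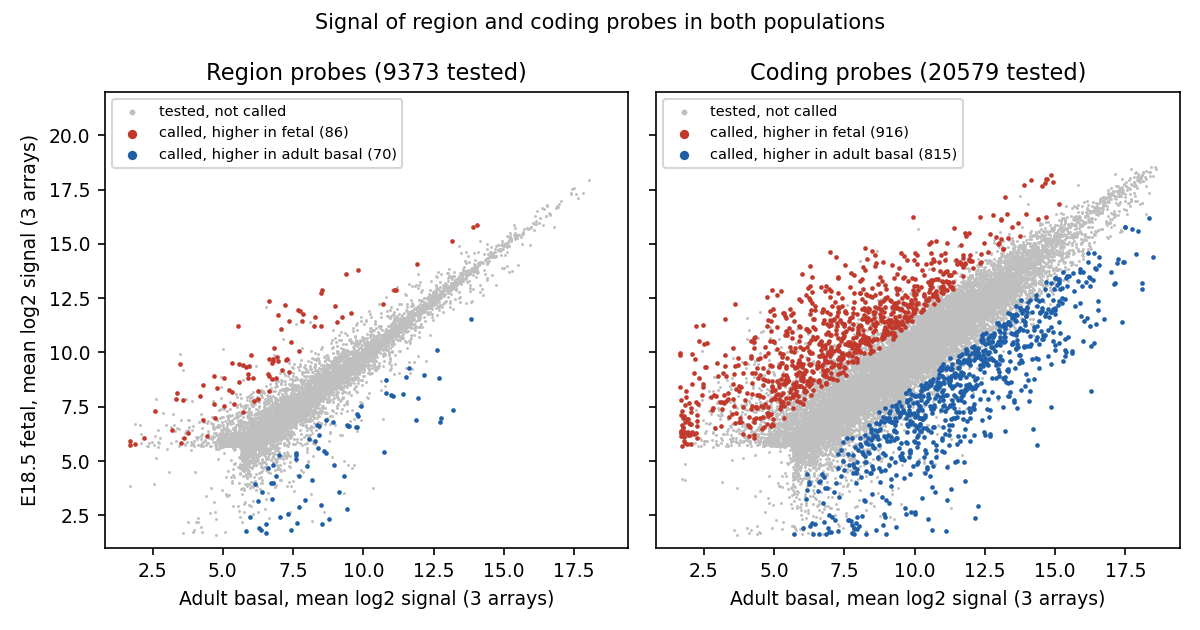
Mean log2 signal of each tested probe in adult basal cells (horizontal axis, 3 arrays) and in E18.5 fetal cells (vertical axis, 3 arrays), with region probes on the left and coding probes on the right, and called probes in colour. Of 9373 region probes, 86 were called higher in fetal and 70 higher in adult basal cells, beside 916 and 815 of 20579 coding probes.

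Of the 86 probes called higher in fetal cells, 69 stood well above background on every array. Over these 69 the log2 fold changes ranged from 1.51 to 5.71 with a median of 2.84, and 14 reached at least 4. The largest among those measured on every array was at chr3:95502970-95503399 on the reverse strand, where the signal of A_30_P01018721 was 12.38, 12.13 and 12.63 in the fetal samples against 6.70, 6.62 and 6.66 in the adult basal ones. The populations were thus far apart, with a log2 fold change of 5.71 (SE 0.14, limma Holm-adjusted p = 5.6e-05). The other tested probe of that locus had a log2 fold change of -0.59. On the X chromosome, at chrX:90997595-91009570 on the reverse strand, the signal of A_30_P01022594 was 11.20, 11.01 and 11.43 in the fetal samples against 5.69, 5.77 and 5.21 in the adult basal ones (log2 fold change 5.66, SE 0.19, limma Holm-adjusted p = 0.00037). It was the only called one of 11 tested probes in its locus, and the others lay near 0, with a median over the 11 of -0.09.

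A stretch of chromosome 12 held several probes with high fetal signal. At chr12:110894095-110899517 on the forward strand, A_30_P01026799 gave 12.42, 12.16 and 11.94 in the fetal samples against 6.90, 7.91 and 6.81 in the adult basal ones (log2 fold change 4.96, SE 0.30, limma Holm-adjusted p = 0.025). The highest adult basal array lay more than 4 log2 units below the lowest fetal array, while the call was lost in 5 of the 6 fits without 1 array. Further along the same locus, at chr12:110909258-110913909 on the forward strand, A_30_P01029814 gave 7.53, 7.37 and 6.98 in the fetal samples against 2.63, 2.81 and 2.34 in the adult basal ones (log2 fold change 4.70, SE 0.18, limma Holm-adjusted p = 0.0013). On no adult basal array was this well above background. For such probes the fold can only be bounded. The mean of the brighter population was set against, for each array of the dimmer one, the higher of the probe's own signal and the lowest signal found well above background, which put A_30_P01029814 at least 11.5-fold higher in fetal cells. That lowest signal was taken over all probes of an array, so that a probe above it can still fail the scanner's test. Bounds and sizes hold for the processing described, and other processing can give a fold below the bound. With an offset of 16 before the logarithm, A_30_P01029814 had a log2 fold change of 2.97, a smaller fold than its bound. Normexp background correction with an offset of 50, which draws dim signals together by construction, gave a smaller change for all 30 of the named called probes that it left to be tested, over 1.5 times smaller as a fold for 18 of them, and an offset of 16 did so for 13 of 36.

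A probe just before these, A_30_P01032469 at chr12:110842154-110883594 on the forward strand, was picked out after its values were seen. Its signal was 9.64, 9.45 and 9.27 in the fetal samples against 3.79, 3.82 and 2.81 in the adult basal ones (log2 fold change 5.98, SE 0.28, limma Holm-adjusted p = 0.0041), and it stood above background on 1 of the 3 adult basal arrays, so that the size of this difference rests in part on background values. The stretch from chr12:110842154-110913909 held 5 called probes in 2 loci, all of them higher in fetal cells. In the locus of A_30_P01026799, the 7 tested probes had log2 fold changes from 0.19 to 5.60, 5 of them passing Benjamini-Hochberg adjustment and 3 called.

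Other loci high in fetal cells lay on chromosomes 5, 7, 9 and 17. The only probe of chr5:35893909-35899497 on the forward strand, A_30_P01033054, gave 11.52, 11.69 and 11.99 in the fetal samples against 6.51, 7.26 and 7.10 in the adult basal ones (log2 fold change 4.78, SE 0.22, limma Holm-adjusted p = 0.0039). Its call was lost in 2 of the 6 fits without 1 array. At chr9:118291593-118324230 on the forward strand, A_30_P01021929 gave 12.88, 12.70 and 13.05 in the fetal samples against 8.56, 8.66 and 8.34 in the adult basal ones (log2 fold change 4.36, SE 0.14, limma Holm-adjusted p = 0.00029). In both, each fetal array was higher than each adult basal array by more than 4 log2 units, although the signal in adult basal cells was itself well above background. The other tested probes of the chromosome 9 locus had log2 fold changes of 0.64 and -0.26. At chr17:34018371-34019394 on the reverse strand, A_30_P01019819 gave 9.13, 9.39 and 10.05 in the fetal samples against 5.15, 5.16 and 5.70 in the adult basal ones (log2 fold change 4.19, SE 0.26, limma Holm-adjusted p = 0.032), with fetal replicate 3 the highest. This call was lost in 5 of the 6 fits without 1 array.

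A pair of loci differed at most of their probes. At chr9:14460976-14488051 on the forward strand, A_30_P01028673 gave 11.92, 11.96 and 12.06 in the fetal samples against 8.02, 7.14 and 7.86 in the adult basal ones (log2 fold change 4.31, SE 0.22, limma Holm-adjusted p = 0.009). Of the 7 tested probes of its locus, 5 were called, with log2 fold changes up to 4.31 and a median over the 7 of 4.08, and the remaining probes were near 0. At chr7:67111261-67120697 on the reverse strand, A_30_P01017750 gave 8.80, 9.11 and 8.83 in the fetal samples against 4.44, 4.62 and 5.03 in the adult basal ones (log2 fold change 4.22, SE 0.17, limma Holm-adjusted p = 0.0019). Its neighbour A_30_P01019990, in the same interval, gave 8.38, 8.73 and 8.44 in the fetal samples against 3.96, 4.50 and 4.40 in the adult basal ones (log2 fold change 4.23, SE 0.18, limma Holm-adjusted p = 0.0019). On 1 adult basal array A_30_P01019990 was not above background, so that its size rests in part on background values, and with normexp correction it was 2.28. Of the 7 tested probes of that locus, 6 passed Benjamini-Hochberg adjustment and 4 were called, between 3.92 and 4.23, and the lowest value was 0.08.

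**Figure D3:**
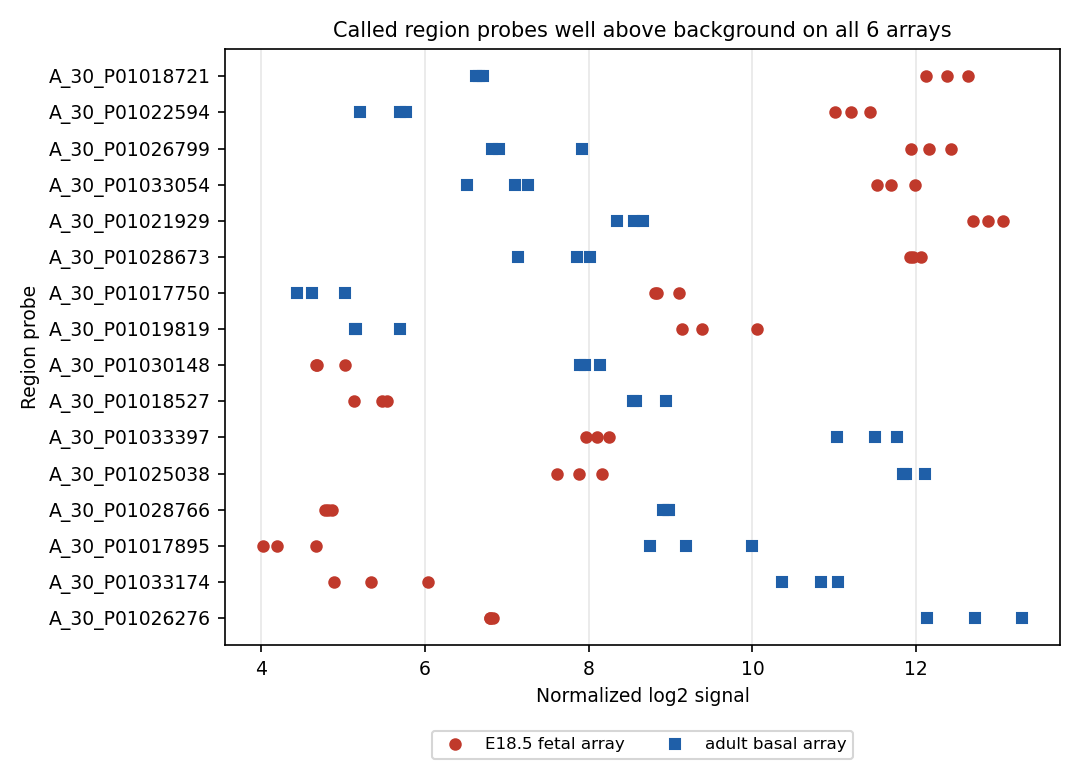
Normalized log2 signal of the 8 loci in each direction with the largest differences among called region probes well above background on all 6 arrays, 1 probe for each locus, with 3 fetal arrays as circles and 3 adult basal arrays as squares. The probes were chosen for their difference, so that circles and squares lie apart in each line, and levels should be compared within a line only.

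In 10 of the 86 probes called higher in fetal cells, no adult basal array was well above background, and the bounds lay between 3.84-fold and 16.7-fold. The highest bound was at chr4:46583780-46614788 on the reverse strand, where A_30_P01028951 gave 7.71, 8.11 and 7.70 in the fetal samples against 2.84, 3.33 and 3.84 in the adult basal ones (log2 fold change 4.50, SE 0.26, limma Holm-adjusted p = 0.017). It was the only tested probe of its locus and lost its call in 4 of the 6 fits without 1 array. With an offset of 16 its log2 fold change was 3.21, a smaller fold than the bound. At chr14:77511189-77522852 on the forward strand, A_30_P01031436 gave 7.60, 8.02 and 7.78 in the fetal samples against 3.54, 3.81 and 3.39 in the adult basal ones (log2 fold change 4.22, SE 0.16, limma Holm-adjusted p = 0.00094), at least 15.1-fold higher in fetal cells with this processing. With an offset of 16 its log2 fold change was 3.09, again a smaller fold than the bound. Of the 5 tested probes of the latter locus, 4 passed Benjamini-Hochberg adjustment and 3 were called, between 3.06 and 4.22. A lower bound, at least 5.11-fold, was set for A_30_P01019475 at chr6:120670699-120677449 on the forward strand, with signals of 6.08, 6.56 and 6.22 in the fetal samples against 3.68, 3.70 and 3.93 in the adult basal ones (log2 fold change 2.52, SE 0.15, limma Holm-adjusted p = 0.025), and its call was lost whichever array was left out.

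Of the 70 probes called higher in adult basal cells, 44 stood well above background on every array. Over these 44 the log2 fold changes ranged from -1.73 to -5.90 with a median of -2.74, and 8 were at least 4 in size. The largest difference among them was at chr18:61809278-61825191 on the reverse strand. There A_30_P01026276 gave 6.79, 6.83 and 6.80 in the fetal samples against 12.13, 12.72 and 13.29 in the adult basal ones (log2 fold change -5.90, SE 0.27, limma Holm-adjusted p = 0.0035), with nearly equal fetal arrays and adult basal arrays more spread. All 3 probes of this interval were called, with log2 fold changes between -5.80 and -5.90. The call of A_30_P01026276 was lost in 3 of the 6 fits without 1 array. On chromosome 1, at chr1:175654606-175672031 on the reverse strand, A_30_P01017895 gave 4.03, 4.19 and 4.67 in the fetal samples against 9.19, 8.75 and 9.99 in the adult basal ones (log2 fold change -5.02, SE 0.32, limma Holm-adjusted p = 0.038). Its neighbour A_30_P01018941 gave 2.12, 1.63 and 1.69 in the fetal samples against 7.39, 6.64 and 8.23 in the adult basal ones, with no fetal array well above background, and was at least 12.5-fold higher in adult basal cells. Its p after Holm adjustment of the limma fit was 0.0499, just within the limit. Both probes lost their call in 4 of the 6 fits without 1 array. With normexp correction A_30_P01017895 had -3.10, and A_30_P01018941 was not tested. All 11 tested probes of this locus passed Benjamini-Hochberg adjustment, higher in adult basal cells, and 4 were called. On 5 of the 11 no fetal array was well above background, and the least changed had -1.78. In 10 of the 11 probes adult basal replicate 3 was the highest and replicate 2 the lowest, as it was in 14 of the 70 probes called higher in adult basal cells. Those 14 include called probes of this same locus, and the share with this order over all probes tested was not computed. The leukocyte genes Lyz2, Tyrobp, Cd52 and Cd74, given with the cell type markers, had the same order, while Ptprc and Cd3e of that list did not. Markers of other cell types, among them Krt14, Col1a2, Cdh5 and Emcn, had it too. The part of any of these cells in this result was not tested.

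Chromosome 6 held a stretch in which probes of both strands were higher in adult basal cells. On the reverse strand at chr6:31078802-31079644, A_30_P01033174 gave 5.35, 6.04 and 4.89 in the fetal samples against 10.37, 10.84 and 11.04 in the adult basal ones (log2 fold change -5.33, SE 0.31, limma Holm-adjusted p = 0.019). On the forward strand at chr6:31233512-31241062, A_30_P01030148 gave 5.02, 4.66 and 4.68 in the fetal samples against 8.14, 7.95 and 7.89 in the adult basal ones (log2 fold change -3.21, SE 0.14, limma Holm-adjusted p = 0.0023). That the populations did not overlap at either goes with the choice of called probes and is no separate result. A_30_P01031155, whose forward interval chr6:31170350-31287353 contains the latter, gave 1.74, 3.53 and 3.13 in the fetal samples against 9.67, 9.09 and 9.51 in the adult basal ones (log2 fold change -6.62, SE 0.44, limma Holm-adjusted p = 0.047). No fetal array was well above background, and the bound was at least 50.1-fold with this processing. With normexp correction its log2 fold change was -3.37 and that of A_30_P01030148 -1.73, and the call of A_30_P01031155 was lost in 5 of the 6 fits without 1 array. A_30_P01033174 likewise lost its call in 5 of these 6 fits and had -3.98 with normexp correction. In the reverse locus 9 of 11 tested probes passed Benjamini-Hochberg adjustment and 2 were called, and in the forward locus 7 of 13 passed and 5 were called, all of these with negative log2 fold changes, while the least changed probes of the loci had -0.84 and a value close to 0.

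In a further pair of intervals, several probes were called together. At chr9:78107225-78118850 on the forward strand, A_30_P01028766 gave 4.78, 4.82 and 4.87 in the fetal samples against 8.91, 8.97 and 8.98 in the adult basal ones (log2 fold change -4.13, SE 0.09, limma Holm-adjusted p = 2.7e-05), with replicates of both populations close together. In the same interval A_30_P01018914 gave 1.67, 2.15 and 2.42 in the fetal samples against 8.47, 8.53 and 8.61 in the adult basal ones (log2 fold change -6.46, SE 0.19, limma Holm-adjusted p = 0.00017), not well above background in fetal cells and at least 27.1-fold higher in adult basal cells with this processing. Its log2 fold change was -2.69 with normexp correction, and it kept its call without any 1 array. At chr1:34735032-34781146 on the forward strand, A_30_P01018527 gave 5.47, 5.14 and 5.54 in the fetal samples against 8.58, 8.94 and 8.55 in the adult basal ones (log2 fold change -3.31, SE 0.16, limma Holm-adjusted p = 0.0057). This probe lost its call in 3 of the 6 fits without 1 array. A_30_P01022315 of that interval gave 3.22, 2.93 and 3.45 in the fetal samples against 7.78, 8.09 and 7.91 in the adult basal ones, at least 17.8-fold higher in adult basal cells (log2 fold change -4.73, SE 0.16, limma Holm-adjusted p = 0.00044), with -2.17 under normexp correction. Of the 4 tested probes in that locus, 3 were called, and the fourth had -0.34.

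Regions measured on every array were also found on chromosomes 4 and 14. At chr4:116791819-116798263 on the reverse strand, A_30_P01025038 gave 7.62, 7.88 and 8.17 in the fetal samples against 11.84, 11.87 and 12.11 in the adult basal ones (log2 fold change -4.05, SE 0.16, limma Holm-adjusted p = 0.0015). Only 2 of the 8 tested probes of that locus were called, and the median over the 8 was -0.63. At chr14:78957377-78962977 on the forward strand, A_30_P01033397 gave 8.24, 7.97 and 8.10 in the fetal samples against 11.03, 11.77 and 11.49 in the adult basal ones (log2 fold change -3.33, SE 0.20, limma Holm-adjusted p = 0.021), the 1 called of 4 tested probes. Both were well above background on every array, so that the lower fetal signal was itself measured. A_30_P01033397 lost its call in 4 of the 6 fits without 1 array, and A_30_P01025038 kept its call in each.

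In 18 of the 70 probes called higher in adult basal cells, no fetal array was well above background, and the bounds lay between 4.16-fold and 50.1-fold. Beside those named above, A_30_P01028171 at chr5:15033568-15033987 on the forward strand gave 1.73, 3.01 and 2.20 in the fetal samples against 8.77, 8.51 and 9.03 in the adult basal ones (log2 fold change -6.46, SE 0.32, limma Holm-adjusted p = 0.006), at least 31.9-fold higher in adult basal cells, and -2.89 on the log2 scale under normexp correction. Its locus on chromosome 5 had 17 tested probes, of which 12 passed Benjamini-Hochberg adjustment and 3 were called, from -3.17 to -6.46.

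The smallest differences called kept their direction but lost their call when an array was left out. The smallest difference called higher in fetal cells was 1.51, for A_30_P01018297 at chr16:90038086-90127636 on the forward strand, with 12.20, 12.22 and 12.21 in the fetal samples against 10.81, 10.65 and 10.65 in the adult basal ones. Next was A_30_P01029936 at chr1:52507374-52514124 on the reverse strand, with 7.31, 7.32 and 7.19 in the fetal samples against 5.80, 5.73 and 5.67 in the adult basal ones and a log2 fold change of 1.54. In the other direction the smallest were -1.73 for A_30_P01017605 at chr4:86267450-86277650 on the forward strand, with 6.56, 6.62 and 6.73 in the fetal samples against 8.24, 8.42 and 8.43 in the adult basal ones, and -1.75 for A_30_P01027882 at chrX:65756325-65757543 on the forward strand, with 5.41, 5.15 and 5.24 in the fetal samples against 6.99, 7.12 and 6.94 in the adult basal ones. The arrays of the populations did not overlap for these 4 probes, as for 60.3% of all probes tested, and for called probes this is no separate result. Each of the 4 probes lost its call whichever of the 6 arrays was left out. Over the alternatives in which each was tested, the log2 fold change of A_30_P01018297 stayed between 1.45 and 1.56, that of A_30_P01029936 between 1.30 and 1.58, that of A_30_P01017605 between -1.28 and -1.79, and that of A_30_P01027882 between -1.42 and -1.82. All 3 probes of the last interval were called. The other two, A_30_P01025738 and A_30_P01022936, were at background in fetal cells and at least 5.74-fold and 9.58-fold higher in adult basal cells.

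The members of a locus gave a second measure of whether a difference belonged to the region or to a single probe. The 92 loci with a called probe held 646 region probes, of which 495 were tested and 151 were too dim. Among them, 56 loci had 1 called probe, 17 had 2, 13 had 3, 3 had 4 and 3 had 5, so that 36 loci held 100 of the 156 called probes. Of the 339 tested probes in these loci that were not called, 274 (80.8%) lay on the side of the call with a median of 0.66 towards it, 142 passed Benjamini-Hochberg adjustment on that side, and 6 lay on the opposite side with a change of at least 1 log2 unit. Since the loci were taken for their calls, and since probes of an interval share their arrays and may overlap, these figures are a description.

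The loci fell between 2 patterns. In 75 called loci at least 3 probes were tested. In 14 of these every tested probe differed by at least 1 log2 unit towards the call, in 46 some did, and in 15 the called probe was alone in doing so. The locus around chr18:36452279-36454825 on the forward strand was a case of the first kind, with all 12 tested probes between -1.27 and -2.87, all passing Benjamini-Hochberg adjustment and 4 called. Its most changed called probe, A_30_P01022374, gave 6.74, 6.54 and 6.52 in the fetal samples against 9.36, 9.29 and 9.75 in the adult basal ones (log2 fold change -2.87, SE 0.15, limma Holm-adjusted p = 0.0088). This probe lost its call in 4 of the 6 fits without 1 array. The locus at chr5:22801058-22939737 on the reverse strand was divided, with 5 of its 14 tested probes called between 2.65 and 3.05 and a median over the 14 of 0.34. Its most changed probe, A_30_P01021129 in the interval chr5:22890322-22939119, gave 9.71, 9.66 and 9.68 in the fetal samples against 6.77, 6.48 and 6.66 in the adult basal ones (log2 fold change 3.05, SE 0.11, limma Holm-adjusted p = 0.00072), with replicates of both populations close together.

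**Figure D4:**
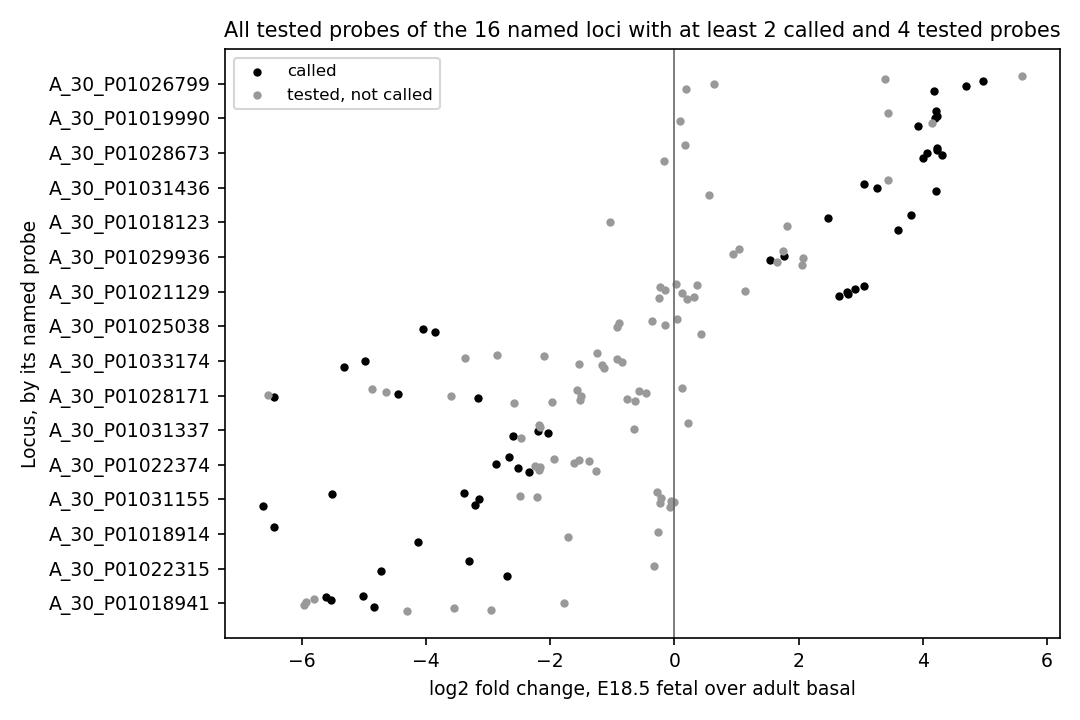
Log2 fold change (fetal over adult basal) of every tested probe of the 16 named loci that had at least 2 called and 4 tested probes, 1 line for each locus, with called probes in black and others in grey. Called probes of a line lie on 1 side of 0, while several lines also hold probes near 0, as in the locus of A_30_P01021129, where 5 of 14 probes were called.

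Of 2100 loci with at least 2 tested probes, 962 (45.8%) had all of them on the same side of 0, a share that depends on how many probes a locus has and was set against no reference value. The log2 fold changes of the first pair of tested probes in an interval correlated at 0.59 over 2525 intervals, which share arrays and may share sequence. The locus with most probes, chr13:28477490-28985604 on the reverse strand, had 34, of which 27 were tested and none was called. Its most changed probe, A_30_P01020186, gave 4.84, 5.13 and 5.14 in the fetal samples against 5.88, 6.53 and 6.30 in the adult basal ones (log2 fold change -1.20, SE 0.18, limma Holm-adjusted p = 1), and 23 of the 27 had a lower signal in fetal cells, with a median of -0.29. Next came 3 loci of 25 probes each without a call, namely chr13:94180737-94203935 on the forward strand, chr13:94182877-94203935 on the reverse strand and chr18:35967933-35986564 on the forward strand, with 15, 19 and 22 tested probes and medians of -0.38, -0.01 and -0.30.

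Intervals probed on both strands allowed the strands to be compared. Of 1067 such intervals, 857 had a tested probe on both strands. The median log2 fold changes of the strands correlated at 0.35 over the 857 intervals and lay on the same side of 0 in 570 (66.5%). This share was set against no reference value, and the median log2 fold change of all tested region probes was itself -0.11. A call was made on both strands of 3 intervals, and on 1 strand of 44. In these 44 the called strand had a median size of 2.04, and the other strand lay on the same side in 33, with a median of 0.36 towards the call, again without a reference value.

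In each of the 3 intervals called on both strands, the called probes differed in the same direction, but the calls of the named probes depended on the fit in 2 of the 3. Of 17 alternative fits, A_30_P01028673 and A_30_P01018123 of the chromosome 9 interval lost their call in 6 and 7, and A_30_P01031337 and A_30_P01020735 of the chromosome 12 interval in 8 and 12, among them the omission of any 1 fetal array. The probes of the chromosome 11 interval, A_30_P01019010 and A_30_P01021551, kept theirs in all 17. At chr9:14460976-14488051, beside the forward probes given above, the reverse strand had 3 of 5 tested probes called between 2.47 and 3.81. The most changed, A_30_P01018123, gave 7.67, 8.14 and 8.16 in the fetal samples against 4.41, 4.37 and 3.76 in the adult basal ones (log2 fold change 3.81, SE 0.22, limma Holm-adjusted p = 0.017), while 1 uncalled reverse probe had a log2 fold change of -1.03. On 1 adult basal array A_30_P01018123 was not well above background. Its size thus rests in part on background values, and with normexp correction it was 1.93. At chr11:96111499-96126224, the reverse probe A_30_P01019010 gave 13.86, 13.65 and 13.94 in the fetal samples against 9.80, 9.99 and 9.60 in the adult basal ones (log2 fold change 4.02, SE 0.14, limma Holm-adjusted p = 0.00055). The forward probe A_30_P01021551 of that interval gave 9.32 ± 0.03 in fetal and 5.84 ± 0.06 in adult basal cells (SD, n = 3; log2 fold change 3.48, SE 0.09, limma Holm-adjusted p = 9.7e-05). Each was the only called probe of its strand, and the medians over the tested probes were 0.11 and -0.09.

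The third such interval, chr12:53669892-53710742, was higher in adult basal cells on both strands. The forward probe A_30_P01031337 gave 7.17, 7.27 and 7.07 in the fetal samples against 9.52, 10.06 and 9.71 in the adult basal ones (log2 fold change -2.59, SE 0.15, limma Holm-adjusted p = 0.023). The reverse probe A_30_P01020735 gave 6.81, 7.02 and 6.82 in the fetal samples against 8.52, 8.74 and 8.77 in the adult basal ones (log2 fold change -1.80, SE 0.12, limma Holm-adjusted p = 0.049), near the limit of what was called. Of 8 forward and 6 reverse tested probes in these loci, 6 and 5 passed Benjamini-Hochberg adjustment.

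**Figure D5:**
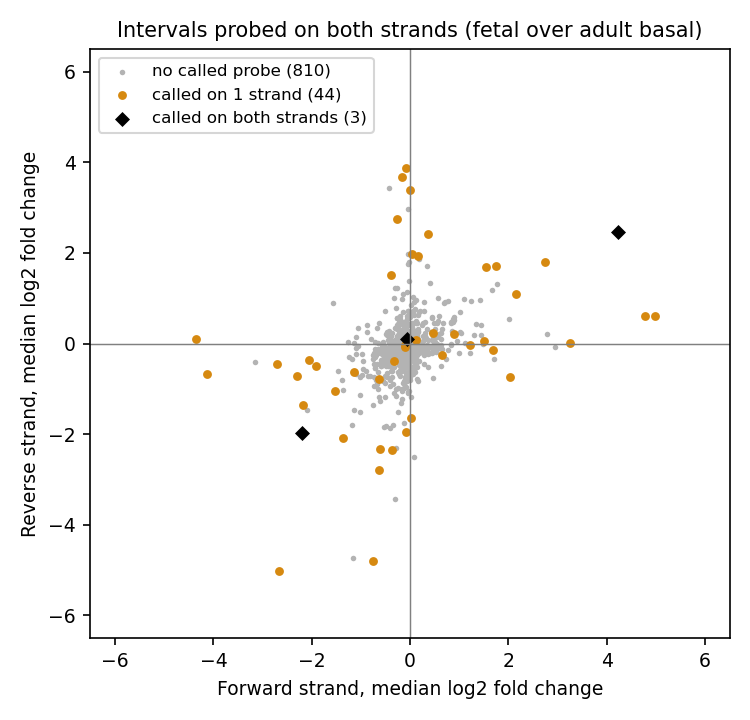
Median log2 fold change (fetal over adult basal) of the tested forward probes (horizontal axis) and reverse probes (vertical axis) of the 857 intervals tested on both strands. Intervals called on 1 strand (44) lie mostly along an axis, and the 3 called on both strands are drawn as diamonds, 1 of them near 0 because its medians include uncalled probes.

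Most called loci lay alone. When called loci of either strand no more than 200 kb apart were joined, a distance chosen after seeing the data, 83 neighbourhoods resulted, of which 75 held a single called locus and 8 held 17 called loci between them, 6 of the 8 on both strands. In each of the 8 the called probes went in 1 direction, 4 towards fetal and 4 towards adult basal cells. The widest was chr5:14923900-15223375, with 3 loci and 5 called probes higher in adult basal cells. The stretch on chromosome 6 described above held 7 called probes of both strands between chr6:31078802-31287353. At chr18:61798876-61825191 there were 5 called probes, the 3 reverse probes given above and 2 forward ones, A_30_P01020982 and A_30_P01029307, which were not above background in fetal cells and were at least 11.7-fold and 14.5-fold higher in adult basal cells. At chr5:35893909-35982561 there was 1 called probe on each strand, with log2 fold changes of 4.78 and 1.72. Some of these neighbourhoods consist of the opposite strands of a single stretch, and whether neighbouring loci belong to the same transcript was not tested.

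By chromosome, the share of tested region probes that was called lay between 2 of 599 (0.334%) on chromosome 2 and 15 of 458 (3.28%) on chromosome 12. All 9 called probes of chromosome 18 were higher in adult basal cells, and they lay in 3 loci. Since called probes gather in few loci, these shares rest on 1 to 12 called loci for a chromosome, and the same share was not computed for other probes, so that nothing is read from their range. Intervals with a called probe had a median length of 11156.5 bp, and those with a tested probe and none called 11230 bp.

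The labels of the sorted cells were checked against genes known to mark mammary and other cell types, each by its brightest probe. Of 7 basal markers, none at background in either population, 5 were called higher in adult basal cells, among them Krt5, a keratin of basal epithelium, with a log2 fold change of -3.90, and Acta2, the smooth muscle actin of contractile myoepithelial cells, with -4.07. Krt14, another basal keratin, had -1.20 and Trp63, a transcription factor of basal cells, -0.08, and neither was called. Of 7 luminal markers, 2 were called higher in fetal cells, namely Elf5, a transcription factor of alveolar progenitors, with 7.55 and the milk protein gene Csn2, not above background in adult basal cells and at least 13.7-fold higher in fetal cells. None was called higher in adult basal cells, but the luminal keratin gene Krt19 with -1.22 and the oestrogen receptor gene Esr1 with -1.06 passed Benjamini-Hochberg adjustment in that direction, and the median of the list was 0.44. The luminal keratin genes Krt8, Krt18 and Krt19 had mean signals of 14.51, 16.94 and 11.85 in fetal and 14.07, 16.36 and 13.07 in adult basal cells, so that both populations gave signal for markers of both lineages.

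Some markers of other cells and of the cell cycle differed between the populations. Of 5 proliferation genes, 4 were called higher in fetal cells, with a median log2 fold change of 5.98, and their summed signal was 70925, 73206 and 70559 in the fetal samples against 644, 1630 and 1164 in the adult basal ones. Mki67, the brightest, had 5.98 and was the 1 gene of the list not called, with a limma Holm-adjusted p = 0.11. Of 6 fibroblast genes, Dcn, a matrix proteoglycan, was called higher in adult basal cells with -3.78, Lum, another matrix proteoglycan, passed Benjamini-Hochberg adjustment in that direction with -1.05, and the median was -0.89. The summed signal was 5429, 5712 and 7019 on the fetal and 15538, 17868 and 25911 on the adult basal arrays, with Col1a2 the brightest at -0.90. None of 6 leukocyte genes was called, but 4 passed Benjamini-Hochberg adjustment higher in adult basal cells, among them Cd52 with -4.39, Tyrobp with -2.80 and Cd74 with -2.79, and the median was -2.27. In the adult basal samples Lyz2, a lysozyme of myeloid cells, had 6.26, 5.61 and 7.95, Tyrobp, an adaptor of myeloid and natural killer cell receptors, 7.82, 7.16 and 9.64, and Cd52, a leukocyte surface glycoprotein, 8.19, 7.39 and 9.80, each of them highest in replicate 3 and lowest in replicate 2. Cd74 had the same order, with 10.29, 9.90 and 10.80. Ptprc, with 6.86, 7.29 and 7.05, and Cd3e, with 12.19, 12.18 and 12.01, did not. Outside this list the order was shared by other markers, among them Krt14, Col1a2, Cdh5 and Emcn. The summed signals of the 6 leukocyte genes were 5036, 4154 and 4972 against 6630, 6118 and 7977, most of it from Cd3e, which had -0.05.

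For endothelium none of 4 tested genes was called and Tek was too dim, but Cdh5, a junction cadherin, with -2.70 and Emcn, a surface sialomucin, with -1.79 passed Benjamini-Hochberg adjustment higher in adult basal cells, and the median was -0.97. The sums, to which Kdr contributed most, were 12225, 10751 and 12494 on the fetal and 12671, 13649 and 11040 on the adult basal arrays, and Kdr had -0.04. Of 5 salivary gland markers, 2 were called higher in fetal cells, Smr3a by at least 69.1-fold and Aqp5, the brightest, with a log2 fold change of 5.79. Bhlha15 was called higher in adult basal cells with -3.73, Amy1 with -1.19 passed Benjamini-Hochberg adjustment in that direction, and the median was 0.10. Their sums were 15867, 17376 and 18082 on the fetal and 2873, 3642 and 2823 on the adult basal arrays, and Smr3a did not exceed background in adult basal cells. The part of such cells, and of the cell cycle, in the differences at region probes was not tested.

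Genes for the machinery that degrades noncoding RNA in the nucleus were looked at beside the regions. Of 15 genes for the nuclear RNA exosome and its cofactors, all of them tested, none was called by limma with Holm adjustment, beside 5.56% of all probes tested, and 3 passed Benjamini-Hochberg adjustment higher in fetal cells, beside 12.0% of all probes and 15.9% of those with a coding accession. The median log2 fold change was 0.11 beside -0.06 for all probes tested. The most different of the 15 by adjusted p was Exosc8, a subunit of the exosome ring, with a limma Holm-adjusted p = 0.21. Exosc2, another subunit and the brightest of the list, had signals of 18.48, 18.68 and 18.52 on the fetal and 18.44, 18.42 and 18.35 on the adult basal arrays. Zcchc8, a cofactor, was uneven between adult basal arrays, with 8.73, 6.67 and 8.68 beside 9.67, 9.45 and 9.75 in fetal cells.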

How the data were processed

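RNA of 3 fetal and 3 adult basal samples was hybridized to 1 single-colour array each. The labels name a low-input labelling kit and the study's methods a whole-transcript version of it, and which was used is not known. The kit bears on how region probes far from the 3' end of a transcript are measured. Its part in the shares called, and in the disagreement of probes within a locus, was not tested. The authors deposited spot intensities from Feature Extraction 11.0.1.1 (version from the submitters' processing notes), with background subtracted within arrays and no normalization between arrays. They also deposited a table of quantile-normalized log2 values of the same arrays, used as an alternative, with 0 columns of other samples left out. The study's own fit kept probes with an Entrez identifier, so region probes were not in it.

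Here control spots and spots marked as outliers (104 to 326 on an array) were dropped, log2 processed intensities were averaged over spots of a probe, and arrays were quantile normalized. Probes below the boundary of the lowest of 3 k-means clusters (log2 5.69) in both populations were removed. All classes were fitted together with limma 3.58.1 in R 4.3.3, which was tested on simulated data. Tables (pandas 2.3.3, numpy 2.4.6) and plots (matplotlib 3.10.9) were made in Python 3.11.15. A probe was called when p after Holm adjustment did not exceed 0.05 and the log2 fold change was 1 or more in size. For markers, accessions were matched to gene symbols of the GRCm38.p6 assembly, whose coordinates were not used. Normexp background correction used the median spot intensity and its local background.

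The members, the marker lists and the rule for named regions were chosen with earlier results of these data known. Named were, 1 probe for each locus, the 8 loci in each direction with the largest change among called probes above background on all arrays, the 4 with the highest bounds, the 3 with most called probes, up to 4 loci called in both directions (there were none), up to 4 intervals called on both strands, the 4 loci with most probes, and the 2 called probes nearest to the fold limit. The added comparison of probes above background on all 6 arrays, the shares called in each fit and the 200 kb neighbourhoods were chosen after seeing the data.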

Additional observations from a re-analysis of the deposited data

How the results depend on the processing

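The count of 156 called region probes in 92 loci, 55.1% of them higher in fetal cells, depended on the fit. Without the low-signal filter it was 56 probes in 34 loci (67.9% fetal), under Benjamini-Hochberg adjustment 1111 in 535 loci, and with limma's trend and robust options 258 in 139 loci. With an offset of 16 before the logarithm the count was 228 among 6650 tested region probes, in 124 loci. Leaving out 1 array gave 49 to 102 probes, 31 to 62 loci and 57.5% to 69.1% fetal. With the slide as a block, 87 probes in 53 loci passed. With the replicate number as a block, 60 probes in 37 loci passed, but deviations of same-numbered arrays correlated at -0.04, 0.07 and -0.01, so that the arrays share only a number and fetal replicate 3 went best with adult basal replicate 1 (0.15). Scaling to the 75th percentile, the deposited values, normexp correction, the cutoff of the study's script and a filter on signal above background gave 165, 155, 170, 168 and 135 probes. The share called stayed below that of coding probes in 18 of 18 fits, from 0.346% against 2.67% without the filter to 11.9% against 29.8% under Benjamini-Hochberg adjustment. The share of region probes detected on an array had a median of 73.6%, or 54.0% when counted above the low-signal boundary. Loci numbered 3184 when intervals no more than 5 kb apart were joined and 4610 with each interval alone, and all probes were on the same side of 0 in 45.0% of 2085 and 55.4% of 2525 with at least 2 tested probes. For 41 named regions and 17 alternatives, 685 log2 fold changes were available and kept their sign, though sizes shrank by a median of 0.90 with normexp correction and 0.38 with the offset among called regions (12 were missing because normexp correction or the offset left the probe untested), 172 lost their call, 3 gained one, and 14 regions were tested in all 17 and stayed on their side of the threshold in each. Probes at background have only bounds, and 6821 region probes were too dim to be tested.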
